A study of Mus musculus with 9 samples.

Results

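AP-1 is a dimeric transcription factor built from proteins of the Fos, Jun and ATF families, and its genes belong to the immediate early genes, which are transcribed within minutes of a stimulus. The genes described here were the Fos family members Fos, Fosb and Fosl2, the Jun family members Jun, Junb and Jund, the stress-inducible partner Atf3, and the immediate early genes Egr1, Ier2 and Ier3. They were chosen by name, 10 of the 46072 genes in the deposited tables, and each symbol matched 1 gene. Monocytes were taken from the spleens of young adult female C57BL/6 mice, and 9 libraries of messenger RNA were sequenced, 3 from each of 3 groups. Con mice received water by gavage for 6 days, Van mice received vancomycin by gavage at 2 mg per mouse per day for the same 6 days, and all mice were then rested, for 8 days in this experiment. VanLip mice had the vancomycin gavage and were given L654, a bacterial lipid that signals through the receptor TLR2, behind the eye on days 7, 9 and 11. The labels give no injection for the other groups, so that the lipid and its injection cannot be told apart.

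Immediate early genes need no new protein for their induction: mitogen-activated protein kinases act on factors such as SRF and CREB that already sit at their promoters, and the transcripts are short-lived. In monocytes and macrophages they respond to Toll-like receptor ligands, adhesion and growth factors, and they are also well known to be switched on while a tissue is cut, dissociated and sorted. The monocytes were isolated with a magnetic kit that removes other cells and leaves the monocytes unlabelled, and the time from spleen to lysis was not given in the sources used here. Transcription in the animal and transcription during isolation therefore cannot be told apart for any level below.

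Total expected counts were 43070361 to 61383806 per library in Con and Van and 170503470 to 184720704 in VanLip. The commonest low count, 1.33 in all Con and Van libraries and 2.00 in all VanLip libraries, would be that of reads of 100 and 150 bases, whereas the study's methods give a single read length for all libraries. Depth, and any difference in read length, cannot be told apart from the lipid. Fitted on fragments with the VanLip libraries thinned to the depth of the others, the calls made on the 10 genes with all 9 libraries were made again. Monocyte markers carried 9690 to 12200 FPKM (fragments per kilobase of transcript, scaled to library depth) in sum in each library, most of it from Lyz2. Single markers moved with the groups: Ccr2, the chemokine receptor of classical monocytes, was at 159 to 173 FPKM in Con, 70.4 to 98.2 in Van and 156 to 256 in VanLip, and Ly6c2, another classical monocyte marker, averaged 396, 317 and 423 FPKM. Markers of nonclassical monocytes did not move together: Treml4 averaged 224 FPKM in Con, 258 in Van and 265 in VanLip, Spn 205, 188 and 235, and Cx3cr1 119.7, 107 and 145. Of 8 neutrophil markers Ly6g was listed at 0 in all 9 libraries, and the others were detected at low levels, S100a8 at 1.22 to 4.86 FPKM and S100a9 at 0.49 to 5.87.

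The 10 genes were expressed at high level in monocytes that had not been stimulated in culture. Fos had the highest mean level, 815 FPKM over the 9 libraries, and ranked 45th of 22784 detected genes in Con, in the top 0.198%. Junb followed at 629 FPKM, Atf3 at 338, Fosb at 219, Ier2 at 186, Jund at 170, Jun at 128, Fosl2 at 61.6 and Egr1 at 43.8, all within the top 5.54% of detected genes in Con. Ier3 stood apart with 7.05 FPKM and rank 7006 in Con. Neighbours in this order were not all separated: Ier2 and Jund overlapped in each group and kept their order in 5 of 9 libraries, Fosl2 and Egr1 overlapped in Con and VanLip, and Fos and Junb and also Fosb and Ier2 overlapped in VanLip. The other neighbours did not overlap in any group.

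**Figure D1:**
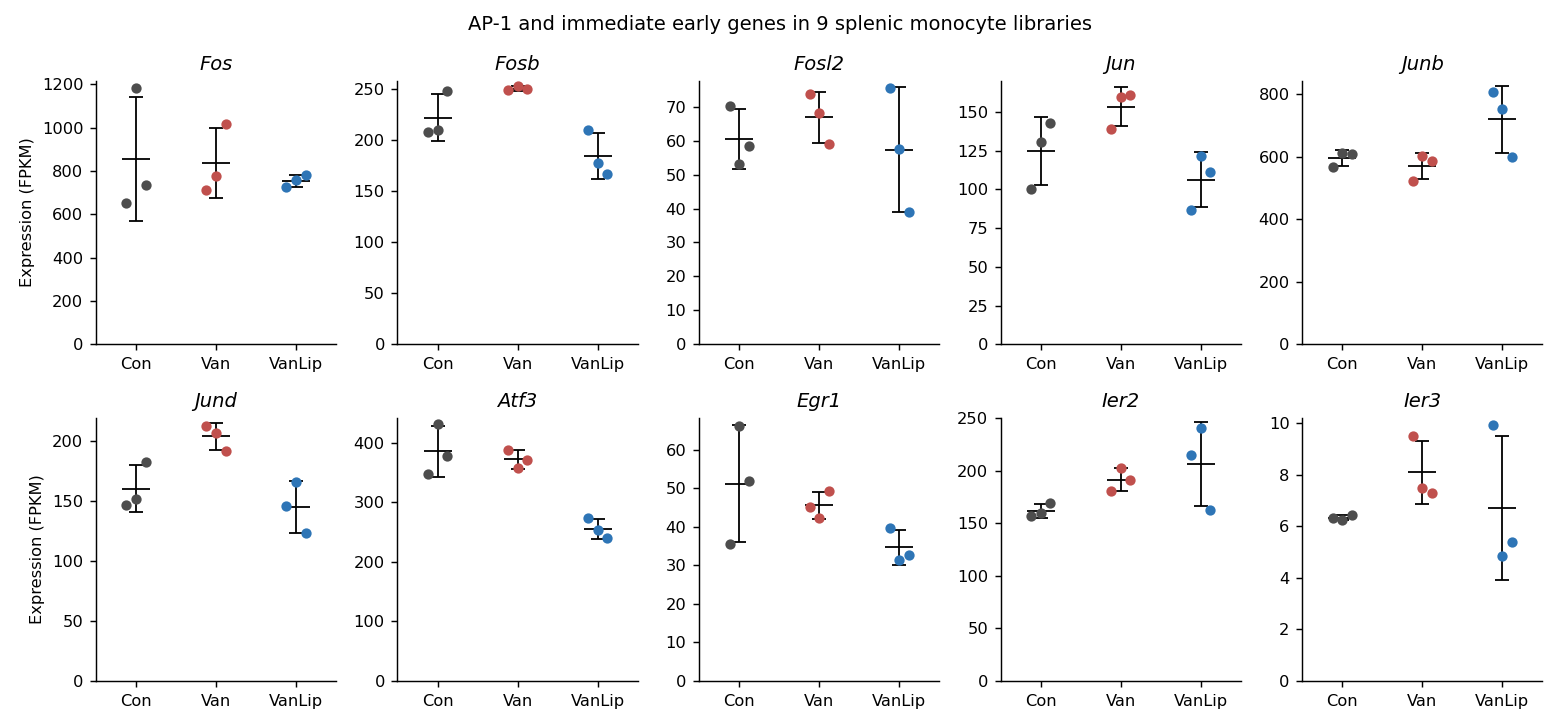
Expression in FPKM (linear axis from 0) of each of the 10 genes in the 3 Con, 3 Van and 3 VanLip libraries; points are libraries, the long bar is the group mean and the whiskers are 1 SD. The Atf3 points of VanLip lie at 240 to 273 FPKM, below those of both other groups, whereas the Fos points of the 3 groups overlap.

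In the Fos family, Fos, the rapidly induced prototype of the family, was at 652.5, 1184 and 733 FPKM in the 3 Con libraries, 711, 775 and 1017 in Van and 725, 759.5 and 780.0 in VanLip. The groups overlapped and the spread was widest in Con, where the highest library had 1.81 times the lowest. Fosb, which encodes a close relative of Fos, was at 208, 210.4 and 249 FPKM in Con, 249, 254 and 250.0 in Van and 209.7, 178 and 167 in VanLip. The 3 Van libraries agreed within 1.02 times and all lay above the other groups, while the VanLip libraries were the lowest apart from an overlap with Con. Fosl2, which encodes Fra-2, was at 70.1, 53.0 and 58.5 FPKM in Con, 73.7, 68.1 and 58.9 in Van and 75.6, 57.6 and 38.9 in VanLip. All its groups overlapped, and VanLip held both the highest and the lowest library.

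In the Jun family, Jun, the main partner of Fos, was at 100.2, 130.6 and 143 FPKM in Con, 139, 160.0 and 161 in Van and 86.5, 121.5 and 111 in VanLip. Every VanLip library was below every Van library, and the Con libraries overlapped both. Junb, which can act against Jun as well as replace it, was at 568, 612 and 609.8 FPKM in Con, 522, 601.5 and 586 in Van and 807, 754 and 599.8 in VanLip. VanLip replicates 1 and 2 were above all Con and Van libraries and VanLip replicate 3 lay among them. Jund, the member of the family that is transcribed without much stimulation, was at 147, 151 and 182.5 FPKM in Con, 213, 207 and 191 in Van and 146, 166 and 123 in VanLip. All Van libraries were above all others.

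Atf3, a stress-inducible partner of Jun proteins that restrains Toll-like receptor responses in macrophages, was at 348, 433 and 378 FPKM in Con, 389, 357 and 371 in Van and 273, 254 and 239.6 in VanLip. The VanLip libraries lay below the other 6 without overlap. Egr1, a zinc finger factor that shares its upstream kinases with Fos, was at 35.6, 66.1 and 52.0 FPKM in Con, 45.2, 42.3 and 49.2 in Van and 39.75, 31.5 and 32.6 in VanLip. The VanLip libraries were below those of Van and overlapped only Con replicate 1, the lowest Con library.

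Ier2, which encodes a nuclear protein of the early response, was at 157, 159 and 169 FPKM in Con, 181, 202 and 191 in Van and 215, 240.4 and 162 in VanLip. Van lay above Con, and VanLip replicate 3 lay within Con while the other VanLip libraries were above all others. Ier3, whose product modulates survival and NF-kB signalling, was at 6.32, 6.23 and 6.43 FPKM in Con, 9.50, 7.50 and 7.29 in Van and 9.92, 4.83 and 5.39 in VanLip. Con varied by 1.03 times from lowest to highest, and VanLip by 2.05 times with 1 library above all the others and 2 below them.

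The first comparison asked how these genes differed after vancomycin gavage. None of the 10 passed the test between Van and Con with DESeq2 and Benjamini-Hochberg adjustment over all genes, where 2.27% were called higher and 2.06% lower of the 18516 genes that kept an adjusted p after independent filtering. The same count of 0 was given by the edgeR quasi-likelihood test and by limma, and 2 of the 10 had an unadjusted p under 0.05, as did 2822 of all 25441 genes fitted. These were Jund, higher in Van by 0.34 on the log2 scale (95% interval 0.11 to 0.56, adjusted p = 0.0681 with DESeq2), and Jun, higher by 0.29 (0.01 to 0.56, adjusted p = 0.297). Fos differed by -0.05 (-0.55 to 0.45) and Junb by -0.08 (-0.29 to 0.14) on the same scale, intervals that bound a difference but do not show equality. The median over the 10 genes was 0.15, and 0 over all genes fitted. In 4 of the 10, namely Fosb, Jund, Ier2 and Ier3, all Van libraries were above all Con libraries in normalized counts, an arrangement found in 12.7% of genes whose normalized count averaged 50 or more, and none was wholly below, as 11.4% of those genes were.

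The count of 0 depended on single libraries. Jund was called higher in Van without Con replicate 3 (log2 difference 0.43, adjusted p = 0.0232 with DESeq2), without VanLip replicate 1 (adjusted p = 0.0467), replicate 2 (0.025) or replicate 3 (0.00852). Ier2 was called without VanLip replicate 3 (0.23, adjusted p = 0.0108), and with only the Con and Van libraries in the fit both Jund (adjusted p = 0.00342) and Ier2 (0.00327) were called.

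The second comparison set mice given vancomycin and L654 against the water controls. Atf3 and Egr1 were lower in VanLip than in Con and none of the 10 genes was called higher, with 3.69% called lower and 2.98% higher of the 16552 genes that kept an adjusted p in this contrast. Atf3 fell by 0.61 on the log2 scale (SE 0.10), to 0.653 times its Con level, with an adjusted p of 4.95e-08 in DESeq2. It was called under all 20 alternatives, whose log2 differences ran from -0.68 to -0.52 and whose adjusted p ran from 4.39e-09 to 0.0434. Egr1 fell by 0.59 (SE 0.18), to 0.664 times, with an adjusted p of 0.0232. Of the genes that were not called, Ier2 differed by 0.33 (95% interval 0.09 to 0.57, adjusted p = 0.0817), Fosb by -0.28 (-0.48 to -0.09, adjusted p = 0.065) and Junb by 0.25 (0.04 to 0.47, adjusted p = 0.154). In normalized counts Fosb and Atf3 lay wholly below Con, against 11.3% of genes with a mean of at least 50, and none wholly above, against 13.1%. The median over the 10 genes was -0.18, and 0.01 over all genes fitted.

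The Egr1 call was kept in 4 of 9 cases when each library was left out in turn: without any 1 of the Van libraries (adjusted p from 0.0278 to 0.0353), and without Con replicate 1, the lowest Con library (-0.79, adjusted p = 1.16e-05 with DESeq2). Without Con replicate 2, which had the highest Egr1 level, the log2 difference was -0.36 with a DESeq2 adjusted p of 0.232. The adjusted p was 0.0845 without Con replicate 3 and 0.0848, 0.146 and 0.244 without VanLip replicates 1, 2 and 3, and 0.152 with the edgeR quasi-likelihood test. With limma it was 0.325 on log2(FPKM + 1), 0.323 on log2(FPKM + 0.1) and 0.178 over genes with a mean of at least 1 FPKM. With a replicate block in DESeq2 it was 0.435. Of the 11 alternatives that kept all libraries or groups whole, 6 kept the Egr1 call. In the other direction, Fosb was called lower without VanLip replicate 1 (-0.40, adjusted p = 0.000153), and Junb (0.37, adjusted p = 0.000256) and Ier2 (0.48, adjusted p = 1.69e-08) were called higher without VanLip replicate 3. Over all genes, DESeq2 called 494 higher and 610 lower in VanLip than in Con, and 657 higher and 500 lower with TMM library sizes, whereas the calls on the 10 genes were the same under both scalings.

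The third comparison set VanLip against Van, both given vancomycin. The lipid, its injection and the depth of sequencing cannot be told apart in it. It shares the Van libraries with the first comparison and the VanLip libraries with the second. Of the genes described, Atf3, Fosb, Jund and Jun were lower in VanLip than in Van and Junb was higher. These were 4 of 10 genes called lower and 1 of 10 higher, with 5.28% called lower and 4.58% higher by DESeq2 of the 18025 genes that kept an adjusted p. Atf3 fell by 0.55 on the log2 scale (SE 0.10, adjusted p = 1.01e-06), to 0.683 times its Van level. Jun fell by 0.54 (SE 0.14, adjusted p = 0.00313), Jund by 0.50 (SE 0.115, adjusted p = 0.00051) and Fosb by 0.45 (SE 0.10, adjusted p = 0.000355). Junb rose by 0.33 (SE 0.11, adjusted p = 0.0283).

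Fos itself did not pass the test, with a log2 difference of -0.15 (95% interval -0.65 to 0.34) between VanLip and Van. Egr1 differed by -0.41 (-0.76 to -0.06, adjusted p = 0.144), Fosl2 by -0.24 (-0.63 to 0.14), Ier3 by -0.27 (-0.76 to 0.21) and Ier2 by 0.10 (-0.14 to 0.34). The median over the 10 genes was -0.34, and 0.02 over all genes fitted. Fosb, Jun, Jund, Atf3 and Egr1 lay wholly below Van in normalized counts, an arrangement found in 14.4% of genes with a mean of at least 50. Junb alone lay wholly above, as 14.1% of those genes did, although in FPKM its lowest VanLip library (599.8) was just under the highest Van library (601.5).

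Leaving out each library in turn kept the calls on Atf3, Fosb, Jun and Jund in VanLip against Van in 9 of 9 cases. The Junb call was kept in 4 of 9: its DESeq2 adjusted p was 0.162, 0.0661 and 0.0537 without Van replicates 1, 2 and 3 and 0.156 and 0.112 without VanLip replicates 1 and 2. The monocyte markers Ccr2 and Ly6c2, with their lowest means in Van, moved between the same groups as Fosb, Jun and Jund, and their part was not tested. Further genes passed when a library was removed, Fosl2 (-0.51, adjusted p = 0.0254) and Ier3 (-0.68, adjusted p = 0.00108) without VanLip replicate 1, Ier2 (0.24, adjusted p = 0.0136) without VanLip replicate 3, and Egr1 without Con replicate 1 (-0.41, adjusted p = 0.0245) or Con replicate 2 (-0.41, adjusted p = 0.0495). The edgeR quasi-likelihood test kept Atf3, Fosb and Jund and gave Jun an adjusted p of 0.0614 and Junb one of 0.0956. With only the Van and VanLip libraries in the DESeq2 fit, Junb was not called (adjusted p = 0.0619) and Egr1 was called lower (-0.41, adjusted p = 0.0132). With limma, Jun (adjusted p from 0.0792 to 0.182) and Junb (0.0845 to 0.183) were called in none of 3 settings, Jund was lost in 2 (0.0725 and 0.0863) and Fosb in 1 (0.0585). Over all genes DESeq2 called 826 higher and 951 lower in VanLip than in Van, which became 1013 and 809 with TMM library sizes, with the same 5 genes of the 10 called.

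**Figure D2:**
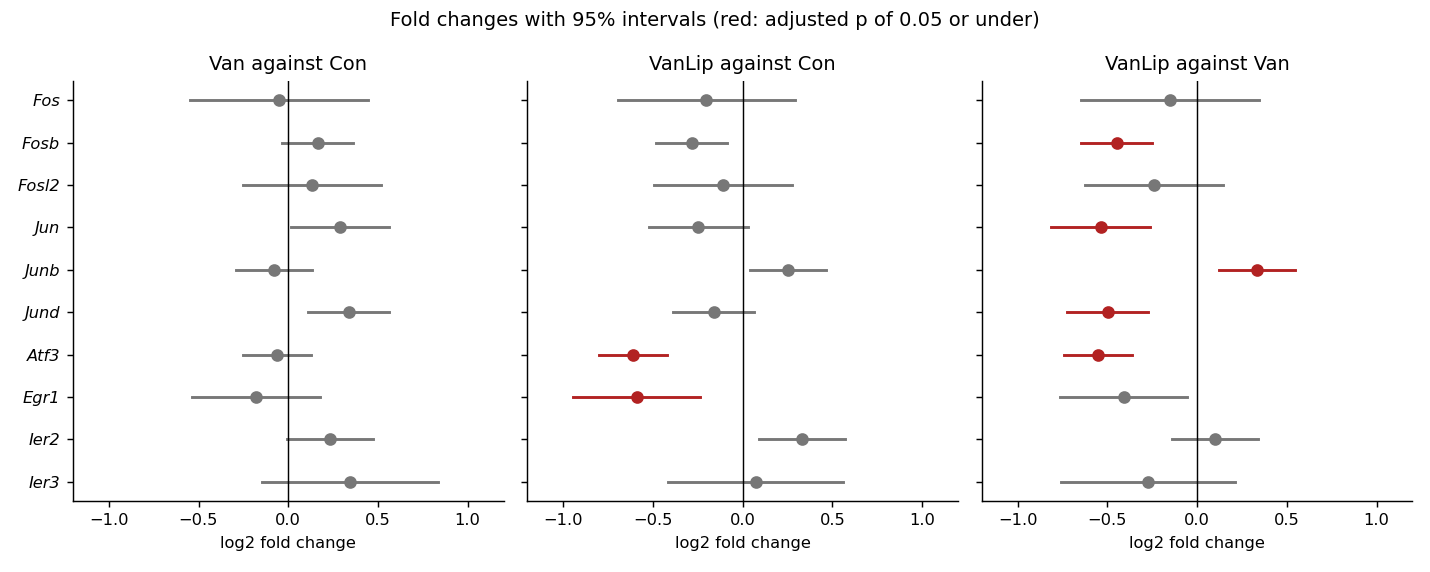
Log2 fold changes from DESeq2 (x axis) of the 10 genes (y axis) in Van against Con, VanLip against Con and VanLip against Van; points are estimates, bars are 95% intervals, and red marks an adjusted p of 0.05 or under. No point is red for Van against Con, Atf3 and Egr1 are red on the lower side in the middle panel, and in the right panel Junb is red on the higher side and Atf3, Fosb, Jun and Jund on the lower side.

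Because AP-1 dimers are drawn from 1 pool of proteins, the transcripts of the 6 Fos and Jun genes were also expressed as shares of their summed FPKM. Junb made up 32.5%, 26.1% and 30.9% of that sum in Con, 27.4%, 29.1% and 25.9% in Van and 39.4%, 37.0% and 33.0% in VanLip. All VanLip shares were above all others, with means of 36.45% ± 3.24 in VanLip, 27.5% ± 1.63 in Van and 29.85% ± 3.33 in Con (SD, n = 3 each). Jun made up 5.43% ± 1.05 in VanLip and 7.38% ± 0.33 in Van, and Jund 7.34% ± 0.72 and 9.88% ± 1.36, each without overlap between these groups. Fos held the largest share in Con and Van, 41.7% ± 7.70 and 39.9% ± 4.34, and had 38.5% ± 3.88 in VanLip, where Junb exceeded it in replicate 1. Shares sum to 100%, so that a higher share of 1 gene lowers the others, and they were not tested.

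**Figure D3:**
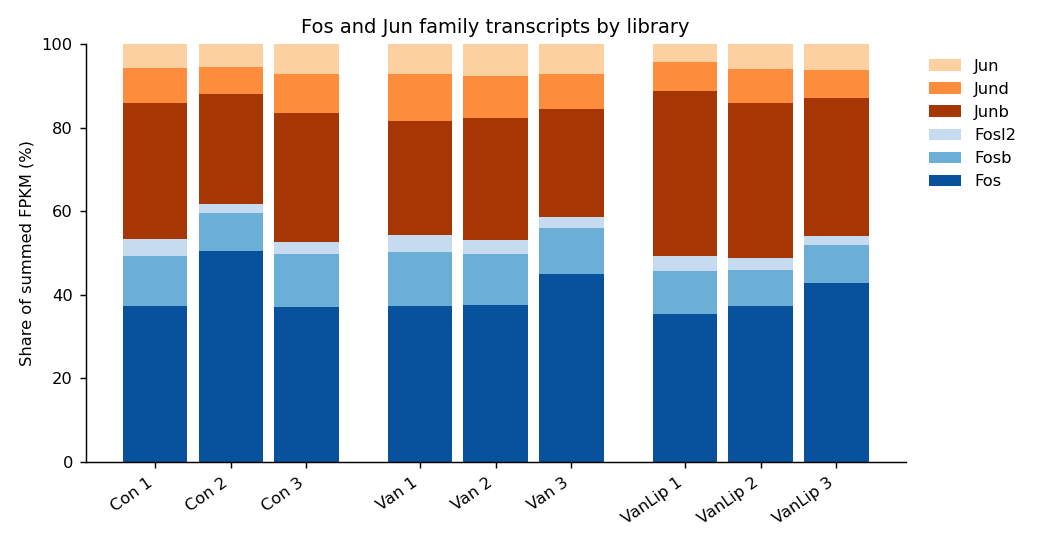
Share in percent of the summed FPKM of Fos, Fosb, Fosl2, Jun, Junb and Jund (stacked bars) in each of the 9 libraries. The Junb segment covers 33.0% to 39.4% in VanLip and 25.9% to 32.5% in the Con and Van libraries.

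The promoter windows of 8 of the 10 genes were found in the RefSeq table for GRCm38.p6, each of 300 bases around a transcription start. Those of Fos, of Fosb, Jun and Atf3, which were lower in VanLip than in Van, and of Junb, which was higher, are printed for comparison of genes that moved in opposite directions. Capitals mark matches to a GC box (gggcgg), the core of the cyclic AMP response element (tgacg) and a NF-kB site, read on either strand, and the core was added after the data were examined. They lie at chr12:85473640-85473939 on the plus strand for Fos and, on the minus strand, at chr7:19309996-19310295 for Fosb, chr4:95052173-95052472 for Jun, chr8:84978699-84978998 for Junb and chr1:191183284-191183583 for Atf3. The Atf3 window sits at a start inside the longer gene model used for coordinates here.
Fos: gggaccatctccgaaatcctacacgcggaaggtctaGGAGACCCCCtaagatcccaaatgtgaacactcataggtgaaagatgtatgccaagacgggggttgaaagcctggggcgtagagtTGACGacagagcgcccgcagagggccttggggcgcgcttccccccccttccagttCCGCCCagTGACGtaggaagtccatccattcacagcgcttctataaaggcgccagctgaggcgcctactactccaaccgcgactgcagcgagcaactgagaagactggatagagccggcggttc
Fosb: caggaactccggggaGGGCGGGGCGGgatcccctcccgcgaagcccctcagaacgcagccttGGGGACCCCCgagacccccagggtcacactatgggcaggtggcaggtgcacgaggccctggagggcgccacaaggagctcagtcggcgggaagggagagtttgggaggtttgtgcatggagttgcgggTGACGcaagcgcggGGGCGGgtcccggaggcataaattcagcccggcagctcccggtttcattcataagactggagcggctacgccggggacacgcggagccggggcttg
Jun: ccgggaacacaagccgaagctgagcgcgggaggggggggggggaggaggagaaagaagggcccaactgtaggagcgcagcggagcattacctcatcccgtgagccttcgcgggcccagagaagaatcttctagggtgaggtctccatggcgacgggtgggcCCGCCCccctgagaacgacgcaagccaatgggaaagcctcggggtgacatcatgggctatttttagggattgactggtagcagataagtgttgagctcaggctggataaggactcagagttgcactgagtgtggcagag
Junb: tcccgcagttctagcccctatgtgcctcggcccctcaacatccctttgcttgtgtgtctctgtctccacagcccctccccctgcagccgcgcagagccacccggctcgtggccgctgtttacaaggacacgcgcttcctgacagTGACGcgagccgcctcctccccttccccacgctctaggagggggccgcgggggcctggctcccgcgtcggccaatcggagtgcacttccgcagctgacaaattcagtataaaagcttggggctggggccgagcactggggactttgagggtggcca
Atf3: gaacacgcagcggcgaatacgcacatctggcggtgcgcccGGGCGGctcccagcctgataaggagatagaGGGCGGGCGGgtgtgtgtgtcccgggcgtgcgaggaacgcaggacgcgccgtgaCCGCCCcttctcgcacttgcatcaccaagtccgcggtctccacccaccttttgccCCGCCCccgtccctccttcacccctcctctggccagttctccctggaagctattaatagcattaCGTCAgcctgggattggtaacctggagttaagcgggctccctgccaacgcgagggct

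A full cyclic AMP response element (tgacgtca), an AP-1 site (tgantca with c or g at n) or a CArG box, the element bound by SRF, was in none of the 8 windows, against 1.79%, 5.2% and 1.63% of all 32851 windows of the same length. These counts concern exact letters in 300 bases only. A GC box was in 6 of 8 windows and in 35.7% of all, absent from those of Junb and Jund. The Atf3 window held 5 of them, between 210 and 66 bases upstream of the start and with 1 overlapping pair, and Fosb held 3, of which the first 2 share a base. The core, which every full element contains, was in 4 of 8 windows and in 20.8% of all: Fos held 2, at 129 and 66 bases upstream, Fosb 1 at 60, Junb 1 at 106 and Atf3 1 at 7. A NF-kB site was in the windows of Fos, Fosb, Fosl2 and Ier3, 4 of 8 against 4.51% of all, and in none of Jun, Junb, Jund and Atf3. Its letters were gggrnwyycc, where r is a or g, w is a or t, y is c or t and n is any base. The Fosl2 window, like that of Atf3, sits at a start inside the gene model used for coordinates. Among the 5 genes that differed between VanLip and Van, the windows of Fosb, Jun and Atf3 held a GC box and that of Junb held none. Atf3 and Fosb shared the core with Junb. The Jund window, counted among the 8, lay upstream of the gene model used for coordinates and is not printed. Its lack of a GC box need not hold at the start of that gene model. Whether the GC box bears on the direction of the differences was not tested.

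The gene bodies shared features that the choice by name did not use. On GRCm38, 6 of the 10 genes had 1 or 2 exons, against 5.1% of the 7178 protein-coding genes with a mean of at least 5 FPKM. Jun at chr4:95049034-95052222, Junb at chr8:84974484-84978718, Jund at chr8:70698949-70700616 and Ier2 at chr8:84661331-84662852 had 1 exon each. The median gene span was 3809.5 bases against 23271 over those protein-coding genes, and Atf3, at chr1:191170296-191218039, was the longest with 47744 bases in 4 exons. Fos at chr12:85473890-85477273, Fosb at chr7:19302696-19310051 and Fosl2 at chr5:32135801-32157842 had 4 exons each, Ier3 at chr17:35821684-35822923 had 2 and Egr1 also had 2.

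The pentamer ATTTA, the core of the AU-rich elements through which proteins such as tristetraprolin speed mRNA decay, occurred at least once in the 3′ untranslated region of 9 of the 10 genes and of 63.9% of those protein-coding genes. It occurred 3 or more times in 5 of the 10, against 32.5%. Per 1000 bases of 3′ untranslated region, the 10 genes had a median of 2.21 and the comparison set 1.2, led by Ier3 with 8.16, Fos with 4.91 and Junb with 4.12, while Ier2 had none. The 5 genes called in VanLip against Van ranged from 0.47 for Fosb to 4.12 for Junb, with Jund at 1.88, Atf3 at 2.53 and Jun at 3.24 between them, so that the only gene called higher had the highest density of the 5. Jun, Jund, Junb and Atf3 overlap a gene on the opposite strand, Junos, Gm11175, Prdx2 and Gm24748 respectively. The library kit keeps strand information, but whether the counting used it was not given in the sources used here.

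Other AP-1 subunits were described from a list of 7 outside the 10 genes. Jdp2, which encodes a repressor that pairs with Jun proteins, was at 8.20, 10.0 and 10.4 FPKM in Con, 22.35, 19.1 and 20.45 in Van and 9.36, 7.77 and 5.98 in VanLip. The Van libraries were all above the other 6, and as Ccr2 was lowest in the same 3 libraries, the part of the mix of monocytes was not tested. Jdp2 rose by 1.10 on the log2 scale in Van against Con (SE 0.165, DESeq2 adjusted p = 1.94e-08), to 2.15 times, and fell by 1.43 in VanLip against Van (SE 0.16, adjusted p = 1.11e-15), to 0.371 times. Batf3, a factor of dendritic cell and macrophage identity, was at 16.6, 16.6 and 17.0 FPKM in Con, 11.3, 14.15 and 12.4 in Van and 20.9, 14.2 and 18.6 in VanLip, and rose by 0.45 in VanLip against Van (SE 0.15, adjusted p = 0.0283). The dendritic cell marker Clec9a was also lower in Van, at 2.23 to 3.03 FPKM in Con, 1.11 to 1.83 in Van and 1.99 to 2.74 in VanLip. Siglech averaged 1.42, 0.779 and 1.32 FPKM in these groups. Other markers of that list did not all follow: Flt3 averaged 8.14, 9.75 and 10.25 and Cd209a, the most abundant, 25.1, 22.3 and 15.35. Zbtb46 averaged 1.51, 1.32 and 1.43, and Xcr1 0.618, 0.346 and 0.379. The part of dendritic cells in the Batf3 difference was not tested. The others passed in no contrast, and none of the 7 passed in VanLip against Con. In that contrast 3 had an unadjusted p under 0.05, as did 3315 of all 25441 genes fitted. Of all genes with an adjusted p, 2.27% were called higher and 2.06% lower in Van against Con. The shares were 2.98% and 3.69% in VanLip against Con and 4.58% and 5.28% in VanLip against Van.

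Of 22 other immediate early genes, 1 was called higher and none lower in Van than in Con (5 at an unadjusted p under 0.05), 2 higher and 3 lower in VanLip than in Con, and 1 higher and 4 lower in VanLip than in Van. Over all genes with an adjusted p, 2.27% were higher and 2.06% lower in the first contrast, 2.98% and 3.69% in the second and 4.58% and 5.28% in the third, so that 1 of 22 is near the background. The most abundant of them, Nr4a1 with 1006 to 1485 FPKM, Zfp36, which encodes tristetraprolin, with 869.5 to 1377 and Dusp1, a phosphatase of MAP kinases, with 489 to 1186, passed in none. Plk3, a stress-responsive kinase, rose in Van by 0.55 (SE 0.17, adjusted p = 0.0281 with DESeq2) and fell in VanLip against Van by 0.64 (adjusted p = 0.00264). Egr3, a low-level relative of Egr1 at 0.524 to 2.00 FPKM, fell in VanLip by 1.37 against Con (adjusted p = 0.000136) and by 0.94 against Van (adjusted p = 0.0168). Plk2 was also lower in VanLip than in both, by 0.37 and 0.45, Btg2 than in Con by 0.34, and Nfkbia, the inhibitor of NF-kB, than in Van by 0.40. Socs3, a feedback inhibitor of cytokine receptors, rose in VanLip by 0.53 against Con (adjusted p = 0.000513) and by 0.54 against Van (adjusted p = 0.000235), and Ier5 rose by 0.31 against Con (adjusted p = 0.0498). The median difference over the 22 genes was 0.10 in Van against Con, -0.05 in VanLip against Con and -0.21 in VanLip against Van.

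Upstream of these genes, 19 MAP kinase pathway members and SRF or CREB factors were read from the same fit. In Van against Con 1 was called higher, Mapk14, which encodes p38 alpha, by 0.18, and 2 lower, Mapk9 by 0.26 and Rps6ka3 by 0.245. Over all genes with an adjusted p, 2.27% were called higher and 2.06% lower in this contrast. In VanLip against Con Map2k2 was higher by 0.22 and Elk4 and Rps6ka3 were lower by 0.30 and 0.22. The shares over all genes with an adjusted p were 2.98% higher and 3.69% lower. In VanLip against Van Mapk14 and Creb1 were lower by 0.24 and 0.25 and none was higher, beside 5.28% lower and 4.58% higher over all. The medians were 0.00, -0.02 and 0.02.

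Of 13 genes described as targets of AP-1 or EGR1 in myeloid cells, none was called in Van against Con by DESeq2, with 1 at an unadjusted p under 0.05. In that contrast 2.27% of genes with an adjusted p were higher and 2.06% lower, and 2822 of 25441 fitted had an unadjusted p under 0.05. In VanLip against Con Mmp9, a matrix protease that neutrophils also make, was lower by 1.61 (SE 0.48, adjusted p = 0.0188), at a level of only 0.269 FPKM in Con and 0.0658 in VanLip. The summed neutrophil markers were lower too, at 5.84 to 13.2 FPKM in Con and 3.56 to 5.71 in VanLip, although the isolation removes cells with Ly-6G, and their part in this was not tested. Lower in the same contrast was Nab2, a corepressor of EGR1, by 0.58 (SE 0.17, adjusted p = 0.0204 with DESeq2). In VanLip against Van the chemokine Ccl4 was lower by 0.66 (SE 0.22, adjusted p = 0.0324) and Cd44 by 0.24 (SE 0.07, adjusted p = 0.0217). None was higher in any contrast. All 13 estimates were negative in VanLip against Con and 12 of 13 in VanLip against Van, with medians of -0.23 and -0.24, although only 2 of 13 were called in each, where 3.69% and 5.28% of genes with an adjusted p were called lower. Over all genes fitted, 11960 estimates were negative and 13024 positive in VanLip against Con, and 11514 and 13412 in VanLip against Van, with medians of 0.01 and 0.02.

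Heat shock genes, which also answer to handling of tissue, were read from the same fit. Of 14 listed, 8 were called higher and none lower in Van than in Con, none higher and 3 lower in VanLip than in Con, and none higher and 11 lower in VanLip than in Van. The shares over all genes with an adjusted p were 2.27% higher and 2.06% lower, 2.98% and 3.69%, and 4.58% and 5.28% in these contrasts. Their summed level (mean ± SD, n = 3 in each group) was 1194 ± 105 FPKM for Con, 1746 ± 72.1 for Van and 998 ± 80.5 for VanLip, whereas the 10 AP-1 and immediate early genes summed to 2626 ± 358, 2697 ± 177 and 2471 ± 184. The chaperone Hsph1 was at 10.0, 8.05 and 8.91 FPKM in Con, 27.8, 34.05 and 31.1 in Van and 4.60, 7.51 and 7.175 in VanLip. All Van libraries were above all Con libraries and all VanLip libraries below them. It rose by 1.75 in Van against Con (SE 0.15, DESeq2 adjusted p = 1.76e-26) and fell by 2.19 in VanLip against Van (SE 0.15, adjusted p = 2.3e-43).

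The inducible Hsp70 genes Hspa1a and Hspa1b are near-identical copies whose reads can be split arbitrarily, and their sum was 105, 53.6 and 158.5 FPKM in Con, 114, 120 and 122 in Van and 4.7, 12.4 and 9.0 in VanLip. The VanLip libraries were far below the other 6, and the Con libraries spanned the Van libraries. The fitted log2 difference of VanLip against Con was -3.46 for Hspa1a and -3.79 for Hspa1b, with adjusted p of 4.08e-13 and 1.2e-13. The median difference over the 14 genes was 0.40 in Van against Con, -0.17 in VanLip against Con and -0.70 in VanLip against Van. The part of heat shock, or of handling, in the differences of the AP-1 genes was not tested.

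**Figure D4:**
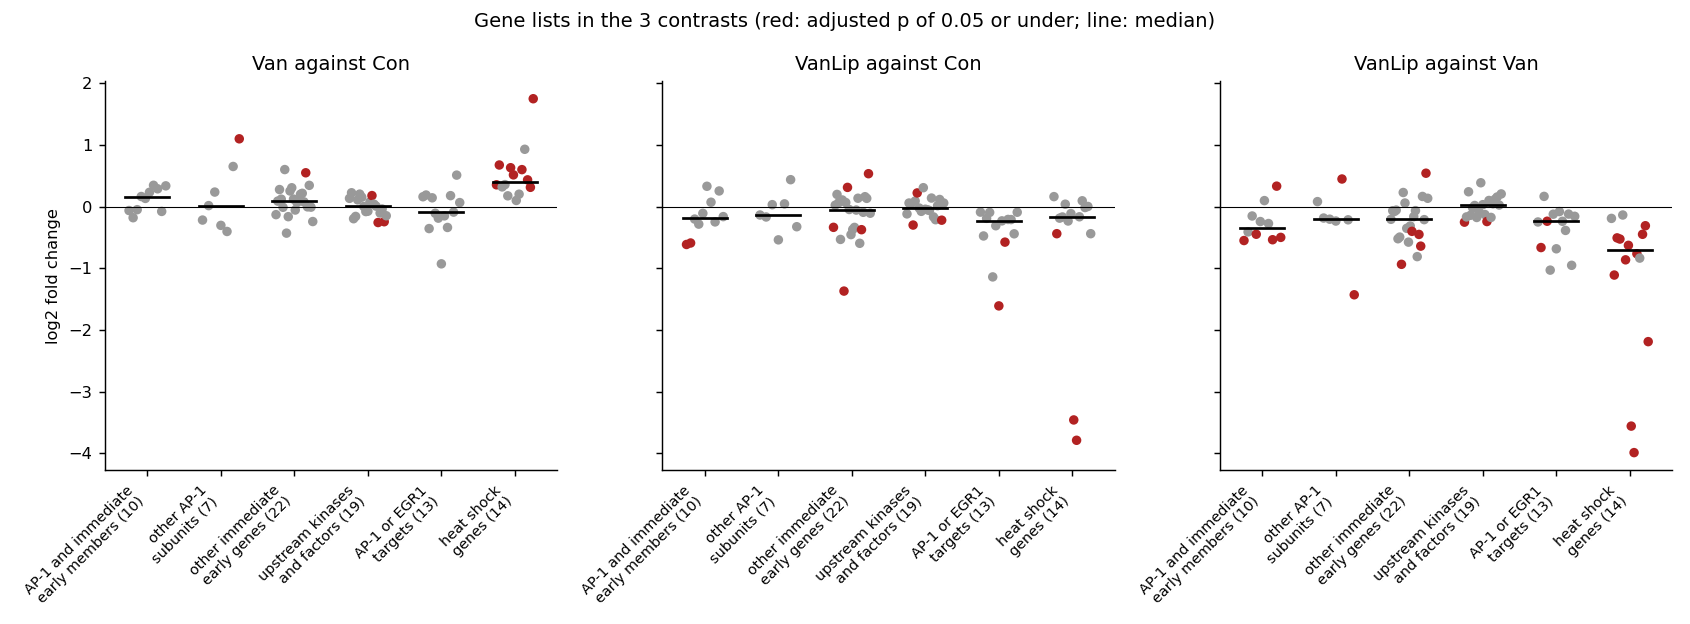
Log2 fold changes from DESeq2 (y axis) of the genes of each list (x axis) in the 3 contrasts; points are genes, black lines are list medians and red marks an adjusted p of 0.05 or under. The 10 AP-1 and immediate early genes have medians of 0.15, -0.18 and -0.34, and the 14 heat shock genes of 0.40, -0.17 and -0.70.

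**Figure D5:**
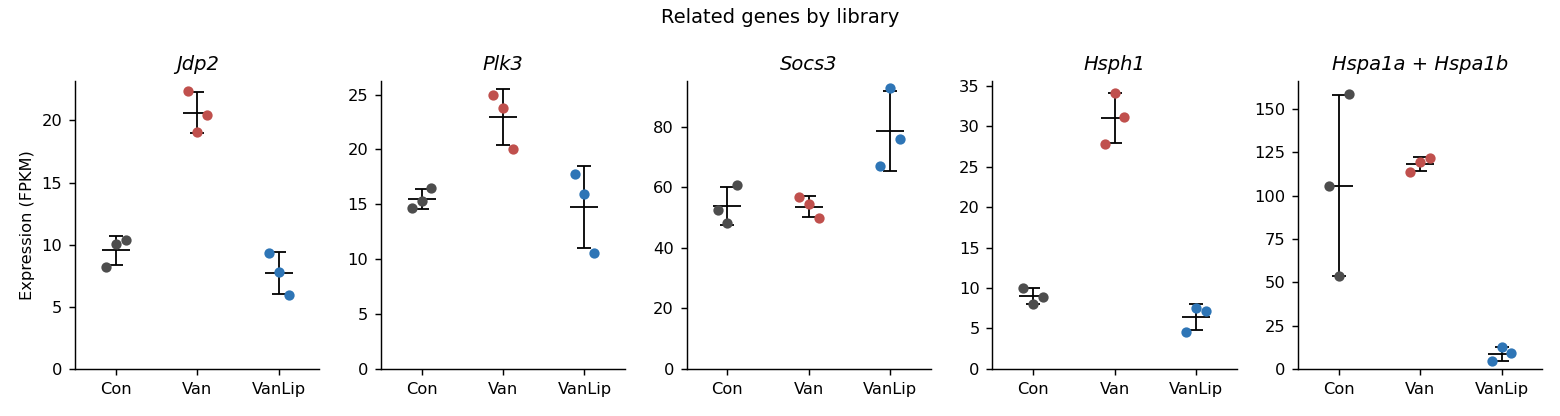
Expression in FPKM (linear axes from 0) of Jdp2, Plk3, Socs3, Hsph1 and the sum of Hspa1a and Hspa1b in the 9 libraries; points are libraries, the long bar is the group mean and the whiskers are 1 SD. Jdp2, Plk3 and Hsph1 are highest in the 3 Van libraries, Socs3 in the 3 VanLip libraries, and the Hsp70 sum lies at 12.4 FPKM or under in VanLip.

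Within groups, single libraries moved several of the genes together. Con replicate 1 was the lowest Con library in 8 of 10 genes, VanLip replicate 1 the highest VanLip library in 6 and VanLip replicate 3 the lowest in 6. The mean log2(FPKM + 1) over the 10 genes was 7.00 to 7.22 in Con, 7.26 to 7.28 in Van and 6.83 to 7.14 in VanLip. Con replicate 2, chosen here after its values were seen, had the highest Fos (1184 FPKM), Egr1 (66.1), Dusp1 (1186) and Zfp36 (1377) of all 9 libraries, but the lowest Con sum of Hspa1a and Hspa1b (53.6).

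Transcripts of other cell types were read from lists of markers, because fewer cells of a type and less RNA per cell cannot be told apart in bulk RNA. Summed over 6 erythroid markers, levels were 99.6 to 202 FPKM in Con, 343 to 772 in Van and 278 to 1160 in VanLip, so that they were higher in both vancomycin-treated groups, without overlap with Con. Markers of B cells summed to 735 to 912 FPKM in Con, 584 to 717 in Van and up to 825 in VanLip, of red pulp macrophages to 913 to 1090, 1020 to 1390 and 928 to 1090, of neutrophils to 5.84 to 13.2, 2.46 to 11.5 and 3.56 to 5.71, and of T cells, NK cells and platelets to 21.7 or under in every library. Markers of dendritic cells, led by Cd209a, summed to 25.1 to 47.9 FPKM and stromal markers to 13.1 to 16.7 in Con, 24.6 to 44.4 in Van and 19.1 to 24.3 in VanLip. The stromal sum was almost all Pecam1, which monocytes also express, whereas Col1a1, Col3a1 and Cdh5 were under 0.4 FPKM in every library and had lower means in Van than in Con. The part of these cells in the levels above was not tested.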

How the data were processed

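The data were expression values from 9 libraries of splenic monocyte messenger RNA, 1 library per mouse and 3 mice per group, with groups and replicate numbers taken from the sample titles. The authors aligned reads to the GRCm38 genome with HISAT2 2.2.1, handled alignments with SAMtools 1.9 and estimated FPKM with StringTie 2.1.3. They deposited FPKM per gene and, separately, expected counts per gene, derived from the StringTie output, which need not be whole and are not normalized. FPKM are per transcript length and were used for levels; expected counts were used for tests. The annotation release was not given in the sources used here, and GENCODE M21 supplied gene models on GRCm38. No column lacked a sample.

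After rounding of the expected counts to whole numbers, the DESeq2 1.42.0 Wald test was run in R 4.3.3 on 9 libraries together, with median-of-ratios size factors and no term but group. All p-values are two-sided and were adjusted by the Benjamini-Hochberg method over the genes that passed independent filtering, 16552 to 18516 of 25441 fitted in each contrast, and 0.05 was the threshold for a call. They set a difference between groups of 3 mice against a spread estimated over all 9 libraries. Each contrast therefore also depends on the group outside it. Alternatives were the quasi-likelihood test of edgeR 4.0.16, TMM scaling, removal of genes with 10 counts in fewer than 3 libraries, only the 2 compared groups, a replicate block, no independent filtering, counts as fragments, VanLip fragments thinned to the depth of the other libraries, limma 3.58.1 on quantile-normalized log2(FPKM + 1) or log2(FPKM + 0.1) or over genes with a mean of at least 1 FPKM, and each library left out in turn. The fits and the motif search were tested on simulated data.

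The 10 genes, the other gene lists and the markers were chosen with earlier results of these data known. All 10 genes are named; from each list, the genes called in any contrast or the 3 with the highest mean FPKM may be named, and for likeness the 5 genes with the highest correlation.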

Additional observations from a re-analysis of the deposited data

How the results depend on the processing

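Atf3 was called lower in VanLip against both other groups under all 20 alternatives. Of the 10 genes, those called in Van against Con numbered 2 with only the 2 compared groups in the fit and 0 to 2 with a library left out. In VanLip against Con they numbered 1 with edgeR and with each of the 3 limma settings and 1 to 3 with a library left out. In VanLip against Van they numbered 3 with edgeR and 2, 1 and 3 with limma on log2(FPKM + 1), on log2(FPKM + 0.1) and over genes with a mean of at least 1 FPKM. Where a single library or test ended a call, the cause was not tested.

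The labels do not say whether libraries with the same replicate number belong together. Across genes, the correlation of same-numbered libraries' deviations ran from -0.065 to 0.12. Such weak values cannot show whether those libraries were handled together. With a replicate block, 1 of the 10 genes was called in Van against Con (Jun, 0.301, adjusted p = 0.0158 with DESeq2) and 1 in VanLip against Con, where Egr1 had an adjusted p of 0.435. In VanLip against Van the block left 4, with Junb at 0.0542. Over all genes it gave 932, 1146 and 1644 calls.

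Over all genes, calls in Van against Con were 803, and 204 with edgeR, 92, 17 and 90 with the 3 limma settings in the order above and 425 to 913 with a library left out. In VanLip against Con they were 1104, and 300 with edgeR, 730 with thinned fragments, 237, 168 and 339 with limma and 606 to 1276 with a library left out. In VanLip against Van they were 1777, and 855 with edgeR, 688, 516 and 829 with limma and 1142 to 1666 with a library left out.

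Signs turned only for differences that were not called. Fos in Van against Con was 0.0243 with each limma setting, and Ier3 in VanLip against Con was -0.0019 with the block and -0.00437, -0.0138 and -0.00444 with limma. With a library left out, Van against Con ran from -0.222 to 0.261 for Fos, -0.127 to 0.0315 for Atf3 and -0.381 to 0.054 for Egr1. VanLip against Con ran from -0.359 to 0.11 for Fos, -0.374 to 0.109 for Fosl2 and -0.335 to 0.267 for Ier3. VanLip against Van ran from -0.247 to 0.0222 for Fos and -0.019 to 0.244 for Ier2. With 3 mice per group, the 95% interval of Fos in VanLip against Con ran from -0.70 to 0.29 on the log2 scale, and depth, with read length as inferred from the low counts, differs between VanLip and the other groups.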

Other observations

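The genes whose levels followed the 10 AP-1 and immediate early genes most closely were read as a description over 9 libraries, which share group and depth. Among 7107 protein-coding genes outside the lists, Pearson's r with the mean log2(FPKM + 1) of the 10 genes was 0.93 for Rere, 0.92 for Tmcc1, 0.915 for Plekhg3, and 0.903 for both Ulk1 and Tle3. After the group means were subtracted, the leading genes were others: Chst12 and Setd8 with 0.967, Flt3l with 0.961, Ext1 with 0.956 and Add3 with 0.954. With 9 points and this many genes, correlations of such size carry no test here.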
